A study of Mus musculus with 4 samples.

Results

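The genes of glycolysis and pyruvate metabolism were examined in a map of N6-methyladenosine (m6A) on the mRNA of mouse natural killer (NK) cells. The set held 36 genes, listed by symbol for their place in the pathway with no measured value in the rule. It covers glucose transporters, the enzymes from hexokinase to lactate dehydrogenase, the pyruvate dehydrogenase complex and its kinases, the PFKFB enzymes, lactate transporters, glucose-6-phosphate dehydrogenase and the transcription factor Hif1a. A peak was taken as belonging to a gene if the list gave the Ensembl identifier of that gene. By this rule 47 of the 20727 distinct peaks were assigned to 26 of the 36 genes, whereas the whole list named 12351 genes.

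Glycolysis turns glucose into pyruvate in the cytosol. Pyruvate is then reduced to lactate by lactate dehydrogenase or enters the mitochondrion, where the pyruvate dehydrogenase complex makes acetyl-CoA from it. NK cells stimulated by interleukin 15 (IL-15) are known to raise glycolysis to support growth and effector function. m6A is a methyl mark that the METTL3 enzyme complex writes on mRNA, mostly within the sequence DRACH and often near the stop codon and in the 3′ untranslated region (UTR), and proteins that read it can change the stability, splicing and translation of a transcript.

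NK cells were sorted from the spleens of C57BL/6 wild-type (WT) mice in which, per the methods of the study, the cells had been expanded in vivo with the IL-15 expression plasmid pLIVE-IL-15. There were 2 libraries of fragments precipitated with an m6A antibody and 2 libraries of input RNA from the same kind of cells, so every library carries the IL-15 treatment and no untreated or METTL3-deficient sample enters the comparison. The methods give the age of the mice for the whole study only, as a range in weeks. The age and number of mice per library are not given in the sources used here. The comparison asked where immunoprecipitated RNA exceeded input RNA along the transcripts of these genes.

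The deposited list gave each peak 1 fold enrichment, the ratio of immunoprecipitate to input made by the authors, and 1 log10 p from peak calling, which was not adjusted for multiple testing. It held 0 columns with a value per sample. Depth is therefore unknown, no value has an error between replicates, and the comparisons below are descriptions set beside the same value over the whole list. Peaks were assigned to 10 of 10 NK cell marker genes and to 4 of 4 T cell and 4 of 4 myeloid markers. A peak shows that RNA of a gene was sequenced and not how much of it there was, and the part of other cells in the peaks of glycolysis genes was not tested.

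Most genes of the pathway carried m6A peaks, and the majority of these peaks were enriched less than 2-fold. A peak was assigned to 26 of the 36 genes, compared with 46.3% of the 21951 protein-coding genes of the annotation. The median fold enrichment of the 47 peaks was 1.94 (interquartile range from 1.58 to 3.17, extremes of 1.16 and 41.7), lower than the 2.66 of the list and the 2.37 of its protein-coding genes. Fold enrichment was under 2 in 25 peaks (53.2%) and in 36.1% of the list. The median log10 p was -5.66 against -4.1 in the list, and 32 peaks (68.1%) had a p-value under 0.001 against 61.5% of the list. Of the peaks assigned to the 36 genes, only those of Pkm and Ldha had a log10 p under -100, a level reached by 2.52% of all peaks.

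Peaks enriched 5-fold or more are called strong here, the limit by which the study chose m6A-modified genes for its pathway enrichment analysis. Strong peaks were found in 9 of the 26 genes with a peak (Slc2a3, Gpi1, Tpi1, Gapdh, Eno1, Pdk1, Pfkfb1, Pfkfb2 and Slc16a1), compared with 49.6% of all genes with a peak and 43.4% of protein-coding ones. These genes held 10 strong peaks, or 21.3% of the 47, compared with 34.6% of the list. The weakest of them had a fold enrichment of 6.01 (Gpi1) and the highest below the threshold had 4.06 (Hk2). Of the 10 strong peaks, 5 touched no exon of a protein-coding isoform of their gene (50%, against 17.7% of strong peaks in protein-coding genes of the list). Among the 37 weaker peaks this was true of 1, or 2.7%, compared with 6.67% of the list.

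**Figure D1:**
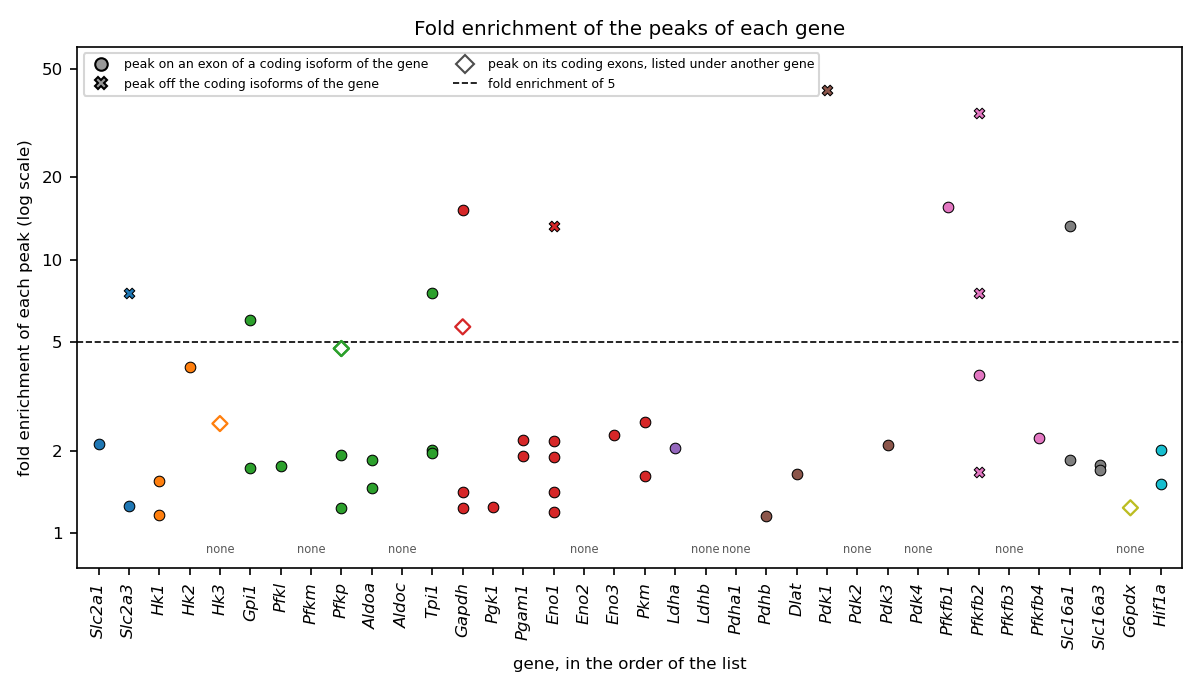
Fold enrichment (immunoprecipitate over input, log scale, vertical axis) of every peak of the 36 genes (horizontal axis), with circles for peaks on exons of coding isoforms, crosses for peaks off them, open diamonds for peaks listed under a neighbouring gene, colours for the role of the gene and "none" where no peak was assigned. Most circles lie near 2, below the dashed line at 5, and the 2 highest values, 41.7 at Pdk1 and 34.3 at Pfkfb2, are crosses.

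Both glucose transporters had a peak. Slc2a1, which encodes the basal glucose transporter GLUT1, had a peak with an enrichment of 2.12-fold (log10 p = -19.2) in the 3′ UTR, centred 638 nt past the stop codon. Slc2a3 (ENSMUSG00000003153), which encodes the high-affinity transporter GLUT3, had a 3′ UTR peak at chr6:122727959-122728138 (GRCm38, minus strand) with an enrichment of 1.26-fold (log10 p = -3.78). Its strong peak at chr6:122739170-122739529 was enriched 7.59-fold (log10 p = -1.31). That peak lay wholly on a retained-intron transcript and touched 0 nt of coding isoforms, and the list held 45 peaks with exactly this pair of values.

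The hexokinases phosphorylate glucose and trap it in the cell. Hk1 had 2 peaks with fold enrichments of 1.55 and 1.17, and Hk2, the inducible isozyme, had 1 peak with an enrichment of 4.06-fold (log10 p = -2.89). All of them lay in the 3′ UTR, between 216 and 665 nt past the stop codon. No peak was assigned to Hk3. However, the peak at chr13:55005985-55006314, assigned to the convergent neighbour Unc5a, overlapped 330 nt of the last exon of Hk3 and 34 nt of Unc5a. It covered the Hk3 stop codon with an enrichment of 2.52-fold (log10 p = -44.2), a p-value lower than that of any peak of Hk1 or Hk2.

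The preparatory phase of glycolysis consumes ATP and splits the sugar into triose phosphates, and 5 of its 7 genes had 10 peaks between them. Gpi1 (ENSMUSG00000036427), which encodes glucose-6-phosphate isomerase, had a pair of peaks side by side in its last exon on the minus strand of chromosome 7. The first, at chr7:34202107-34202465, covered the stop codon and was enriched 1.73-fold (log10 p = -50.1). The second, at chr7:34201868-34202047, lay farther into the 3′ UTR, centred 456 nt past the stop codon, and was enriched 6.01-fold (log10 p = -4.58). The narrow downstream peak was thus the more enriched and the wider peak at the stop codon the more significant. Of the phosphofructokinases, which commit glucose to glycolysis, Pfkl (the liver isoform) had a 3′ UTR peak of 1.77-fold and Pfkp (the platelet isoform) had peaks enriched 1.94-fold and 1.24-fold, whereas Pfkm (the muscle isoform) had none. A pair of overlapping peaks assigned to Pitrm1, the convergent neighbour of Pfkp, also covered 359 and 361 nt of the end of the Pfkp 3′ UTR. Both had a fold enrichment of 4.74 (log10 p of -8.63 and -8.71) and lay wholly on Pitrm1 exons (390 and 361 nt).

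Aldolase splits fructose bisphosphate, and Aldoa carried the third most significant peak of the whole set. This peak was enriched 1.85-fold (log10 p = -87.3), covered the stop codon and reached the end of the mRNA. Its second peak (1.47-fold, log10 p = -2.39) spanned 15140 nt of the genome, 1473 nt of Aldoa exons and 799 nt of another gene model that also bears the symbol Aldoa, so its exact place within the locus is not resolved by the list. Aldoc had no peak. Tpi1 (ENSMUSG00000023456), which encodes triose phosphate isomerase, had 3 peaks with different positions. The peak at chr6:124810676-124811035 in the 3′ UTR was enriched 2.01-fold (log10 p = -48.3). A peak of 61 nt in exon 5 had a fold enrichment of 1.96. The strong peak at chr6:124813817-124814176, with an enrichment of 7.59-fold (log10 p = -3.82), overlapped 169 nt of the coding isoform in exon 1 and otherwise intron sequence kept in other transcripts.

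The payoff phase yields ATP and pyruvate, and 6 of its 7 genes had 14 peaks, with Eno2, the enolase of neurons, as the exception. Gapdh (ENSMUSG00000057666) encodes the dehydrogenase that starts this phase. Its peaks at chr6:125162284-125162464 (1.24-fold, log10 p = -11.4) and chr6:125162523-125162793 (1.42-fold, log10 p = -10.5) lay over exons 6 and 5. The strong peak assigned to Gapdh, at chr6:125165398-125165548, was enriched 15.2-fold (log10 p = -2.91). It lay on an alternative coding isoform (ENSMUST00000182277) and not on the longest coding transcript, and 226 peaks of the list shared its pair of values. The end of the Gapdh mRNA was covered by a peak that the list assigned to the convergent gene Iffo1. That peak, at chr6:125161715-125162224, began at the last base of Gapdh and covered its stop codon. The peak overlapped 510 nt of Gapdh exons, of which 262 nt were on coding isoforms, and 68 nt of Iffo1 exons. It was enriched 5.69-fold (log10 p = -270, rank 125 of the list by p-value), more than both peaks in exons 5 and 6, and its p-value was lower than theirs.

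Pgk1, which encodes the first ATP-forming kinase of the pathway, had a peak with an enrichment of 1.25-fold (log10 p = -8.32) that began at the first base of the 3′ UTR. Pgam1, a phosphoglycerate mutase, had a peak of 2.19-fold in exon 1 and one of 1.92-fold that reached the end of the mRNA (log10 p of -4.13 and -28.1). Eno1 (ENSMUSG00000063524), the enolase found in most cells, had 5 peaks, more than any other gene of the set, and they were spread from the 5′ UTR to the end of the mRNA. The peak at chr4:150248491-150248879 covered the stop codon and had the lowest p-value of them, with an enrichment of 2.17-fold (log10 p = -59.9). Peaks at chr4:150237100-150237189 in the 5′ UTR, chr4:150245240-150246508 in exon 7 and chr4:150247813-150248083 over exons 10 and 11 had fold enrichments of 1.9, 1.2 and 1.42 (log10 p of -3.26, -8.41 and -20.7). The strong Eno1 peak, at chr4:150241341-150241461 (13.3-fold, log10 p = -2.5), lay only on a retained-intron transcript. Eno3, the enolase of muscle, had a peak of 2.29-fold (log10 p of -6.87) over its stop codon.

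Pkm (ENSMUSG00000032294) encodes pyruvate kinase, the last enzyme of glycolysis, and carried the most significant peak assigned to the set. This peak at chr9:59678986-59679375 was enriched 1.62-fold (log10 p = -122), was centred 346 nt past the stop codon and ended at the last base of the gene. A further peak, at chr9:59672015-59672224, overlapped 59 nt of exon 8 of 11 and was enriched 2.56-fold (log10 p = -20.7). Ldha (ENSMUSG00000063229) encodes the lactate dehydrogenase subunit that favours the making of lactate. Its only peak, at chr7:46855001-46855627, covered the stop codon and the whole 3′ UTR with an enrichment of 2.05-fold (log10 p = -119). Ldhb, the other common subunit, had no peak.

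Windows of 24 or 25 bases from the most significant peaks of the genes named in full are shown. Apart from that of Gapdh, the peaks were taken by p-value and not by motif. A DRACH site was present in 39 of the 40 placed peaks of the set. Each is the mRNA strand read 5′ to 3′ from the GRCm38 genome, with the motif nearest the centre of the peak in capitals (GGACT, or GGAC where the peak held no GGACT, or DRACH where it held neither). In DRACH, D stands for any base but C, R for a purine and H for any base but G. Any GGACT is also a GGAC and a DRACH, and GGAC is a DRACH unless G follows it.
Pkm, 3′ UTR, chr9:59679033-59679057, plus strand: gaggaatgcaGGACTggaaaccctg
Pkm, exon 8, chr9:59672027-59672051, plus strand: cagccaagggGGACTaccctctgga
Ldha, coding sequence of exon 8, chr7:46855018-46855041, plus strand: atgtatcctgGGACaaaatggaat
Eno1, 3′ UTR, chr4:150248551-150248574, plus strand: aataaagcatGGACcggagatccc
Eno1, exon 10, chr4:150247884-150247907, plus strand: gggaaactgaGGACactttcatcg
Gpi1, 3′ UTR, chr7:34202295-34202319, minus strand: tagttggcctGGACTacaaggctgt
Tpi1, 3′ UTR, chr6:124810805-124810829, minus strand: ggtatacatgAGACCctaagaggcc
Gapdh, 3′ UTR, in the peak assigned to Iffo1 and chosen after its values were seen, chr6:125161991-125162014, minus strand: accccagcaaGGACactgagcaag

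The marked adenosine lay 211 nt past the stop codon in the Pkm 3′ UTR, 8 nt past it in Eno1, 107 nt past it in Gpi1, 452 nt past it in Tpi1 and 30 nt past it in Gapdh. In Ldha it lay at -111 nt, before the stop codon, although the peak reached far into the 3′ UTR. A motif of this kind is common in windows of the same length on the same mRNA. GGACT was held by 72.8% of windows for the Pkm 3′ UTR, 45.3% for Gpi1 and 13.4% for Pkm exon 8, where the peak covered only 59 nt of exon. GGAC was held by 87.6% and 45.4% of windows for the Eno1 peaks, by 43% for Gapdh and by 100% for Ldha, and DRACH by 100% for Tpi1. These matches describe the sequence under each peak and do not locate a methylated base.

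The pyruvate dehydrogenase complex links glycolysis to the mitochondrion, and the PDK kinases switch it off by phosphorylating its E1 subunit. Of these 7 genes, 4 had a peak. Pdhb, which encodes the beta subunit of E1, had the lowest fold enrichment of the set (1.16-fold, log10 p = -3.07), and Dlat, the E2 acetyltransferase, had a 3′ UTR peak of 1.65-fold (log10 p of -5.66). Pdha1, the phosphorylated alpha subunit of E1, had no peak. Among the kinases, Pdk3 had a peak of 2.1-fold (log10 p of -2.98), and Pdk2 and Pdk4 had none. Pdk1 (ENSMUSG00000006494) carried the highest fold enrichment of the whole set. Its peak at chr2:71873792-71875348 was enriched 41.7-fold (log10 p = -9), but it lay only on transcripts without a coding sequence and touched 0 nt of coding isoforms, and 32 peaks of the list had the same pair of values.

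The PFKFB enzymes make and break fructose bisphosphate in the form that activates phosphofructokinase, and 3 of the 4 genes had 6 peaks, of which 3 were strong. Pfkfb1 (ENSMUSG00000025271), the isoform of liver and muscle, had a peak at chrX:150612969-150622149 with an enrichment of 15.6-fold (log10 p = -13.4). It spanned 9181 nt of the genome but only 211 nt of exons 4 to 7 of 14, all in the coding sequence, and no other peak of the list had the same pair of values. It was the most significant strong peak that lay on a coding isoform of its own gene. Pfkfb4 had a 3′ UTR peak of 2.24-fold (log10 p of -3.43), and Pfkfb3, the inducible isoform, had none.

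Pfkfb2 (ENSMUSG00000026409) was assigned 4 peaks, but only the peak at chr1:130689182-130689362, at the end of its 3′ UTR, touched its exons. That peak was enriched 3.79-fold (log10 p = -1.31), and 199 peaks of the list had the same pair of values. The other peaks assigned to Pfkfb2 lay upstream of its longest coding transcript, in intron 1 of another coding isoform (ENSMUST00000189534). They were at chr1:130721519-130721698 (7.59-fold, log10 p = -1.38), chr1:130722356-130722834 (34.3-fold, log10 p = -81.7) and chr1:130724029-130724119 (1.67-fold, log10 p = -2.11). All 3 fell wholly inside exon 2 of Yod1 (ENSMUSG00000046404, chr1:130717327-130724358), a gene for a deubiquitinase that is nested on the opposite strand, within its 3′ UTR. Their overlap with Yod1 exons was 180, 479 and 91 nt and with Pfkfb2 exons 0 nt, and Yod1 was assigned 0 peaks in the list. The peak of 34.3-fold was both highly enriched and highly significant, and 182 peaks of the list had at least its fold enrichment with at most its p-value. Whether the libraries kept the strand is not given in the sources used here, so RNA from Yod1 and from this Pfkfb2 intron cannot be told apart in these values.

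The window at the DRACH site nearest the centre of that peak is shown on the Yod1 strand, since this is the most significant strong peak assigned to any gene of the set. The peak held 7 DRACH and 0 GGAC sites on that strand, and 100% of windows of its length on the Yod1 mRNA held a DRACH site.
Peak assigned to Pfkfb2, on the Yod1 3′ UTR, chr1:130722561-130722585, plus strand: cttacttgtcTAACTtacttgtctg

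**Figure D2:**
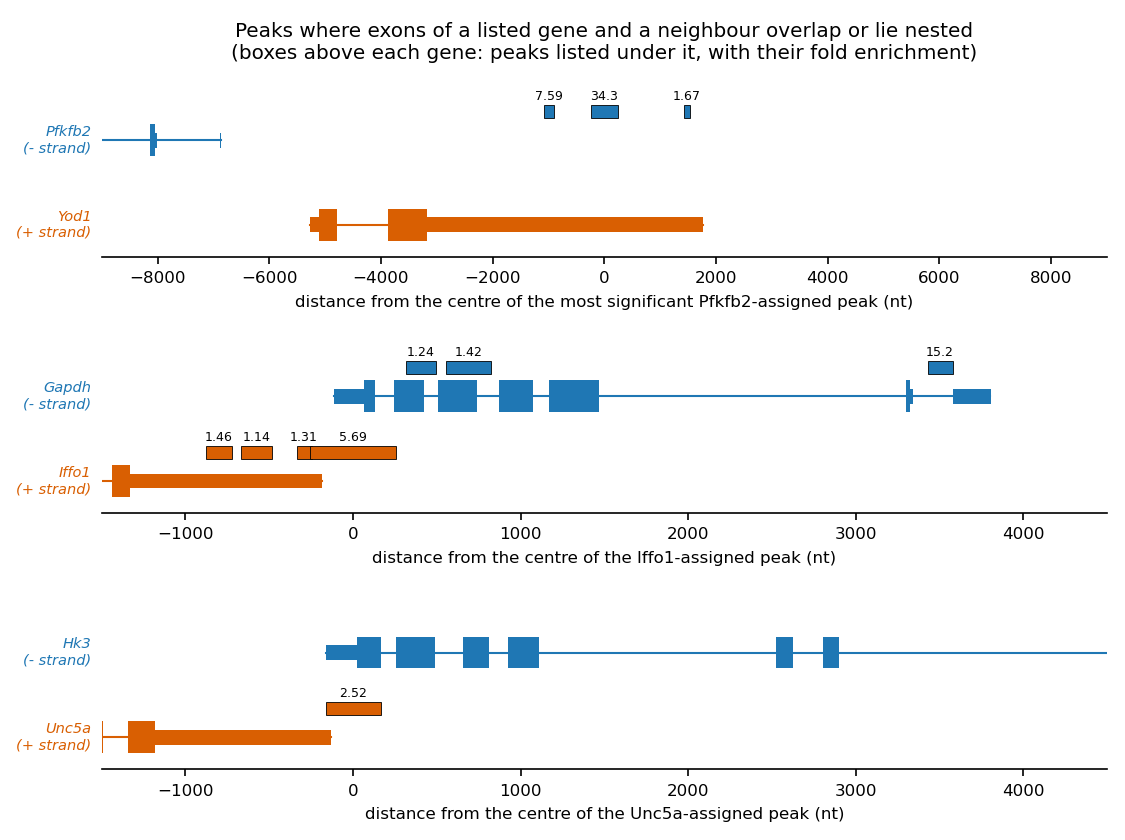
Position of peaks (boxes, labelled with their fold enrichment and drawn above the gene the list assigns them to) on the longest coding transcript of each gene (thick, coding; medium, untranslated; line, intron), by distance in nt from the centre of a peak. The peak of 34.3-fold assigned to Pfkfb2 lies on Yod1, the peak of 5.69-fold assigned to Iffo1 lies on the end of Gapdh, and the peak of 2.52-fold assigned to Unc5a lies on the end of Hk3.

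Both lactate transporters had peaks. Slc16a1 (ENSMUSG00000032902), which encodes the monocarboxylate transporter MCT1, had a strong peak at chr3:104638668-104638788 with an enrichment of 13.3-fold (log10 p = -2.5). It covered the first 121 nt of the mRNA, in the 5′ UTR, and its pair of values was shared by 367 peaks of the list, the strong Eno1 peak among them. A peak of 61 nt at chr3:104655711-104655771 covered its stop codon with an enrichment of 1.85-fold (log10 p = -2.64). Slc16a3, which encodes the lactate exporter MCT4, had a peak of 1.78-fold just before the stop codon and a peak of 1.71-fold in the 3′ UTR (log10 p of -2.43 and -2.21). The p-values of all 4 peaks of these transporters were above 0.001.

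Hif1a, a transcription factor that switches on many glycolytic genes, had a pair of 3′ UTR peaks centred 1108 and 1587 nt past the stop codon. Their fold enrichments were 2.02 and 1.51 (log10 p of -6.22 and -1.87). G6pdx, which sends glucose-6-phosphate into the pentose phosphate pathway, was assigned no peak. A peak assigned to the overlapping gene Ikbkg, at chrX:74409782-74409842, lay wholly in the G6pdx 3′ UTR (61 nt) and touched 0 nt of Ikbkg exons, with an enrichment of 1.24-fold (log10 p = -5.98). In all, 5 peaks listed under another gene lay on coding-isoform exons of 4 genes of the set (Hk3, Pfkp, Gapdh and G6pdx). Counted by any listed peak on such exons, 27 of the 36 genes held a peak.

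**Figure D3:**
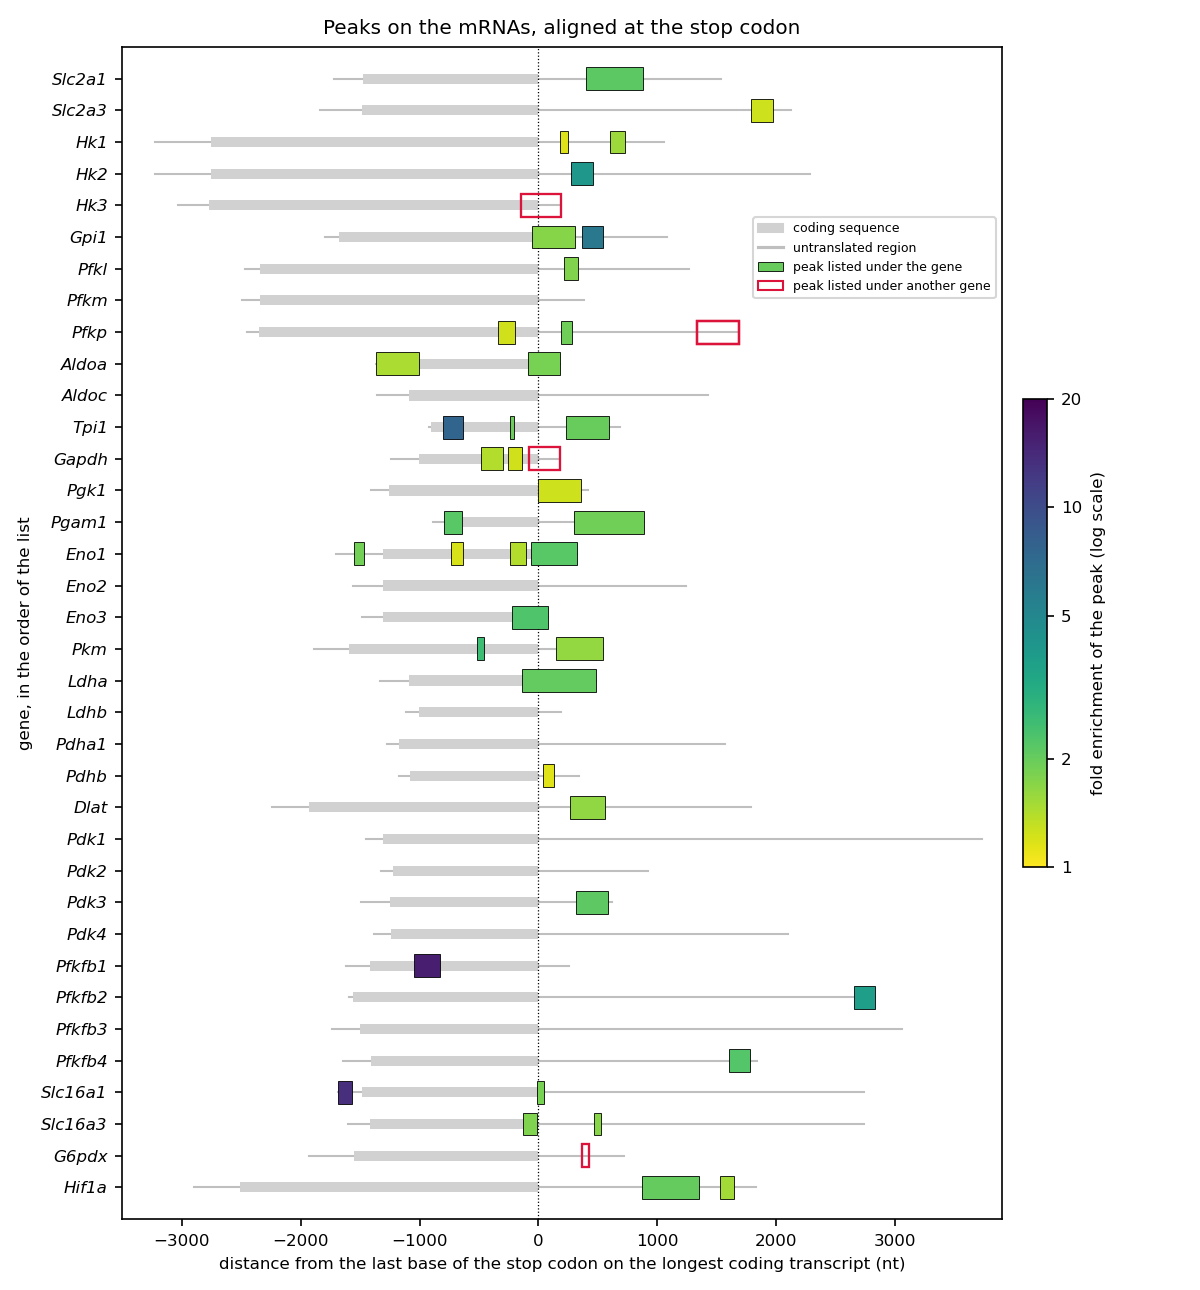
Peaks on the longest coding transcript of each of the 36 genes, aligned at the end of the stop codon (horizontal axis in nt, colour for fold enrichment on a log scale, grey bars for coding sequence, thin lines for UTRs, red outlines for peaks listed under another gene). Of the 40 peaks that could be placed, 25 were centred in the 3′ UTR and 6 covered the stop codon.

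The position of peaks along the mRNAs was examined next. Of the 47 peaks, 40 could be placed on the longest coding transcript of their gene by the centre of their exonic part. The centre lay in the 3′ UTR in 25 peaks (62.5%, 95% Wilson interval from 47 to 75.8), in the coding sequence in 13 (32.5%) and in the 5′ UTR in 2 (5%), compared with 56.5%, 33.5% and 9.95% of the 15706 placed peaks of the list. The 3′ UTR made up 34.4% of the mRNAs per peak, and 42.1% in the list. Within 200 nt of the stop codon lay 11 centres (27.5%, interval from 16.1 to 42.8), and 22.3% in the list. Both list values fall inside these intervals, which cover counting error only and treat peaks as independent.

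The stop codon itself was covered by 6 peaks (15%, against 20.4% in the list), those of Gpi1, Aldoa, Eno1, Eno3, Ldha and Slc16a1. The end of the mRNA was reached by 7 peaks (17.5%, against 22.2%). Of the 5 placed peaks with a p-value under 1e-50, 4 reached the end of the mRNA (Pkm, Ldha, Aldoa and Eno1), the other being that of Gpi1. The share that did so among the 968 placed peaks of the list at this level was not calculated. The fold enrichments of these 5 peaks were between 1.62 and 2.17, and all 5 lay in the last exon.

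**Figure D4:**
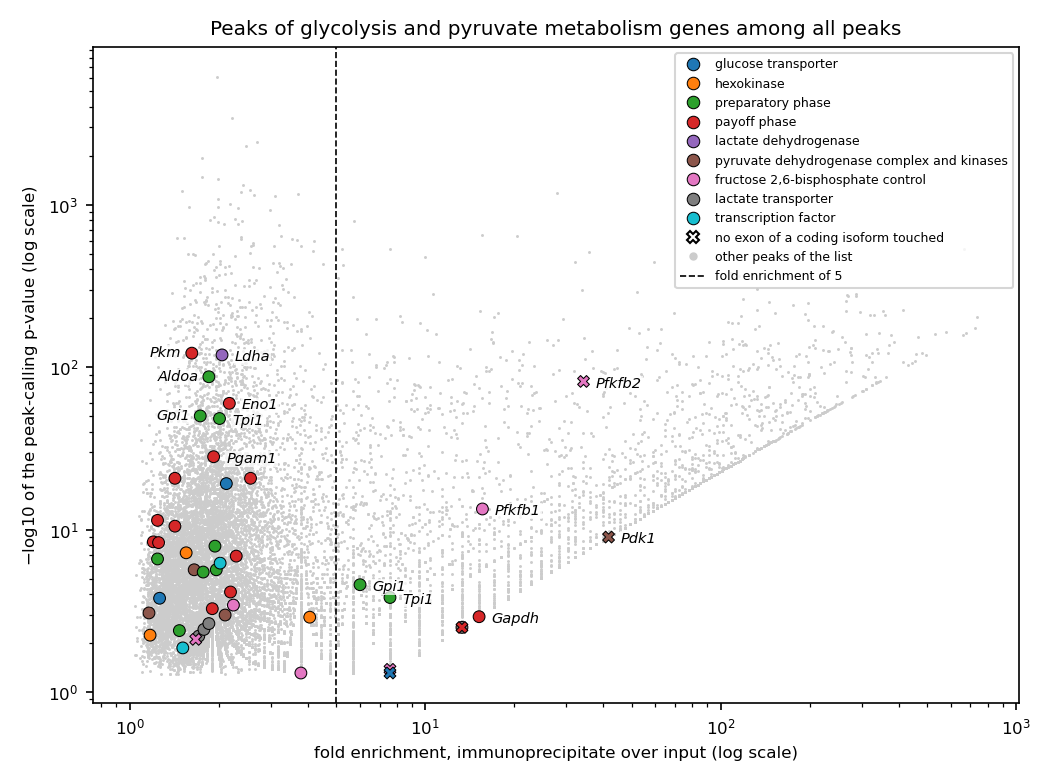
Fold enrichment (horizontal axis, log scale) against the negative log10 of the peak-calling p-value (vertical axis, log scale) of the 47 peaks, coloured by role, over all other peaks of the list in grey. The peaks of Pkm, Ldha, Aldoa and Eno1 at the top left have fold enrichments near 2, the Pfkfb2-assigned peak of 34.3-fold with a p-value between those of Aldoa and Eno1 lies right of the dashed line at 5, and 5 of the 10 peaks right of it are crosses, which touch no coding isoform.

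DRACH density was close to that of the list, and the shares of peaks with GGAC and GGACT were slightly lower. DRACH was searched on the mRNA strand of the placed peaks and occurred 21.1 times per kb (95% interval from 18.3 to 24.3), against 19.6 per kb over the mRNAs of these genes and 20.2 per kb in all placed peaks. It was present in 39 of the 40 placed peaks (97.5%), compared with 90% of placed peaks of the list and 91.2% of windows of the same length on the same mRNAs. GGAC occurred 3.65 times per kb of peak and 4.55 times per kb of mRNA, against 4.03 per kb in all placed peaks. It was held by 21 peaks (52.5%), against 52.8% of windows and 54.6% of placed peaks of the list. GGACT was held by 9 peaks (22.5%), against 21.3% of windows and 26.6% of placed peaks of the list.

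Genes with and without a peak had close medians of length and motif density. The median mRNA length was 3072 nt (from 1420 to 5513) in the 26 genes with a peak and 2822 nt (from 1304 to 4801) in the 10 without, and the median 3′ UTR length was 1069 and 1081 nt. The median DRACH density of the mRNA was 19.3 and 19.2 sites per kb. The 10 genes without a peak were Hk3, Pfkm, Aldoc, Eno2, Ldhb, Pdha1, Pdk2, Pdk4, Pfkfb3 and G6pdx, of which Hk3 and G6pdx held a peak listed under a neighbour. Pfkm, Aldoc, Eno2, Ldhb and Pdk4 are isoforms best known from muscle, heart or brain. However, Eno3, the enolase of muscle, and Pfkfb1, the isoform of liver and muscle, each had a peak. A link between the tissue of an isoform and the lack of a peak was not tested. The list gives no input level, so a gene without a peak may be unmethylated or too weakly expressed to be called, which cannot be told apart.

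Fold enrichments in the list fell on a grid. Between 5 and 30, 78.4% of all values were whole multiples of 1.897 within the rounding of the list (0.005 for values below 10 and 0.05 for those from 10 to 100), and so were those of 7 of the 10 strong peaks of the set. The exceptions were the peaks of 6.01 at Gpi1, 15.6 at Pfkfb1 and 34.3 assigned to Pfkfb2. Of the 10 strong peaks, 5 had a p-value under 0.001 (Gpi1, Tpi1, Pdk1, Pfkfb1 and the peak of 34.3-fold assigned to Pfkfb2). The share at this level among the 7179 strong peaks of the list was not calculated. Of the 5 strong peaks of the set at this level, those of Gpi1, Tpi1 and Pfkfb1 lay on a coding isoform of their gene.

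Copies of glycolytic genes also bear on these values, since reads can be split or shared between copies that are near-identical. Pseudogenes with at least 80% identity over 200 nt or more were found for 12 of the 36 genes. This cut also takes in less similar copies, and the Gapdh copies with a peak ranged from 86.7% to 99.9% identity. Gapdh had 331 of them, of which 18 carried a peak, Ldha had 28, Pkm 13, Aldoa 10 and Eno1 10. The share of all annotated pseudogenes with a peak was not calculated. Protein-coding retrogenes with a strong peak were found for Eno1 (Eno1b, 99.5% identity, fold enrichment of 14.5 and log10 p of -10) and for Gapdh (Gm3839, 99.1% identity, 8.34 and -6.15, and Gm10358, 99.1% identity, 11.4 and -2.09). These fold enrichments were higher than those of the peaks over the end of the Eno1 and Gapdh mRNAs themselves. How the aligner treated reads that match several copies is not given in the sources used here. The values of genes with such copies, Gapdh, Eno1, Ldha and Gpi1 among them, are uncertain to that extent.

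A list of 48 other genes of glucose and pyruvate metabolism was set beside the 36. It holds further isozymes, gluconeogenesis, the pentose phosphate pathway, mitochondrial pyruvate carriers and oxygen sensing. A peak was assigned to 32 of them, against 46.3% of protein-coding genes of the annotation. A strong peak was assigned to 12, against 43.4% of protein-coding genes with a peak. The 65 peaks had a median fold enrichment of 2.95, against 2.66 in the deposited list and 2.37 in its protein-coding genes. Of them, 16 were strong, against 34.6% of all peaks, and 40 had a peak-calling p-value under 0.001, against 61.5% of all peaks. The highest fold enrichments were 30.3 at Egln1, an oxygen-sensing prolyl hydroxylase that marks HIF proteins for destruction, 28.4 at Tigar, a fructose bisphosphatase, and 20.4 at Pdp2, a phosphatase that reactivates pyruvate dehydrogenase (log10 p of -6.35, -5.91 and -39.9). The Egln1 peak covered the first 480 nt of the mRNA. The Pdp2 peak, 600 nt wide, was centred 162 nt past the stop codon and covered it. The most significant peaks were those of the pentose phosphate enzymes Tkt (5.88-fold, log10 p = -197), Taldo1 (1.59-fold, log10 p = -80) and Pgd (5.02-fold, log10 p = -58.6). The peak of Tkt, which encodes transketolase, thus had a lower p-value than any peak assigned to the 36 genes. Of the 16 strong peaks of these 48 genes, 13 lay on an exon of a coding isoform. Among all strong peaks in protein-coding genes of the deposited list, 17.7% lay off the coding isoforms.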

How the data were processed

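The authors fragmented poly(A) RNA, precipitated it with an m6A antibody and sequenced 2 immunoprecipitates and 2 inputs. Per the methods and processing notes, reads were trimmed (FastQC, Trimmomatic, Cutadapt, fastp), aligned with HISAT2 1.0 to the mouse genome (GRCm38), and peaks were called with exomePeak and annotated with ChIPseeker 1.0. The deposited list holds, for all libraries together, the fold enrichment as a ratio of immunoprecipitate to input made by the authors. It also holds a score that the authors made, the log10 of the unadjusted peak-calling p-value. It has 0 columns of per-sample values, so depth is unknown and the planned edgeR test of immunoprecipitate against input was not run. How replicates were combined is not given in the sources used here.

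Of 20751 rows, 24 exact repeats were dropped. Peaks were matched to genes by Ensembl identifier (12332 of 12351 found in GENCODE M21, GRCm38) and placed on the longest coding transcript with Python 3.11.15, pandas 2.3.3 and scipy 1.17.1. Placement and motif search were tested on simulated data. Sequences were read from the RefSeq GRCm38 genome, copies were found with blastn 2.17.0, and 95% intervals are Wilson intervals for shares and for motif sites per base, and binomial order-statistic intervals for the median. The genes named in full have a strong peak, a log10 p under -100 or at least 3 peaks; windows were limited to 8 peaks, the most significant first. The rule for the genes uses no measured value, but the genes, lists and alternatives were drawn up with earlier results of these data known. Marker lists of other blood cells are not reported here.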

Additional observations from a re-analysis of the deposited data

How the results depend on the processing

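Of 49 alternative values for 8 results, 35 stayed within 1.5 times the count or within the interval of the value reported, and 14 did not. The results are counts, medians, shares and densities without a direction, so none could reverse. The 9 genes with a strong peak became 5 with peaks of p under 0.001, 18 with a fold enrichment of at least 2, 5 with peaks on coding isoforms only, and 5 with any listed peak on a coding-isoform exon, an alternative chosen after seeing the data. The 10 strong peaks became 5, 22, 5 and 6 under the same changes and 6 from a fold enrichment of 10. The median fold enrichment of 1.94 (interval from 1.73 to 2.17) became 2.21 with the highest peak of each gene. The share of centres near the stop codon, 27.5%, became 12.5% within 100 nt and 47.5% within 400 nt. Sites per kb, 21.1 for DRACH, were 3.65 for GGAC and 1.14 for GGACT, which are narrower motifs. For the other changes the cause was not tested. The number of genes with a peak stayed between 22 and 27. No paired analysis was possible because the list has no value per sample, and for the same reason no replicate could be left out and no replicate error is known. Depth, the level of input RNA and the strand of the reads are unknown, so neither the lack of a peak nor a weak p-value can be weighed against coverage.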

Other observations

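Peaks were also found on pseudogenes that resemble 3 glycolytic genes. Of the 331 pseudogenes that resemble Gapdh, 18 carried 19 peaks, of which 13 were strong, against 34.6% of all peaks of the list. The share of all annotated pseudogenes with a peak was not calculated. The fold enrichments of the 19 peaks were from 1.31 to 41.7. The most significant was at Gm7336 (99.8% identity to Gapdh over 1232 nt, chr7:51747585-51747878, GRCm38), with an enrichment of 3.45-fold (log10 p = -55.2), and the most enriched was at Gm10284 (41.7-fold, log10 p = -12), where the peak spanned 1005 nt, the length of the whole copy. Of the 13 strong peaks, 12 were whole multiples of the 1.897 step, against 5665 of the 7179 strong peaks of the list. The rounding of the list was allowed for (0.005 for values below 10, 0.05 for those from 10 to 100 and 0.5 above 100). A p-value under 0.001 was found for 7 of the 19 peaks, against 61.5% of all peaks of the list. A pair of Ldha-like pseudogenes, Gm5987 and Gm15707, had fold enrichments of 20.9 and 9.48, and the copy of Gpi1, Gm1840, had 7.59. The pseudogenes that resemble Pkm, Aldoa, Eno1, Tpi1, Pgk1 and Pgam1 had 0 peaks. Protein-coding retrogenes are not counted here, and Eno1b, a retrogene that resembles Eno1, did carry a peak.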
